A study of Mus musculus with 11 samples.

Results

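Newborn mouse ovaries without a working Sohlh1 gene were compared with wild-type newborn ovaries. The 4 arrays labelled Sohlh1 KO and the 4 labelled wild type were chosen by their titles, 8 of the 11 arrays of the series. The other 3 arrays, from Sohlh2 KO ovaries, entered the estimate of the spread and 1 direct comparison. Total RNA of newborn ovaries on a C57BL/6/129S6/SvEv background was amplified to biotin-labelled cRNA, and each sample was read on 1 array of the Illumina MouseWG-6 v2 format. The labels give the genotype only as Sohlh1 KO or wild type, without the design of the allele, and they name no treatment. They do not say whether a replicate was 1 animal, several pooled animals or a repeat of 1 RNA, so p-values measure the spread between these samples, which may be technical.

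Sohlh1 is a basic helix-loop-helix transcription factor of germ cells, known in the mouse from the oocytes of the perinatal ovary and from spermatogonia. Around birth the oocytes rest in meiotic prophase and are enclosed, one by one, by flat pregranulosa cells to form primordial follicles. Oocytes that leave this pool grow and produce the zona pellucida, the growth factors Gdf9 and Bmp15 and the proteins stored for the embryo, while the cells around them become granulosa cells that respond to hormones. The question of the comparison is which transcripts of the newborn ovary differ when Sohlh1 is missing.

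Basic helix-loop-helix proteins bind E-boxes, the letters CANNTG, which read alike on both strands. The promoters below show these letters in Sohlh1 itself, in an oocyte gene that fell (Zp3), in an oocyte transcription factor that was not called (Figla) and in the gene with the largest rise (Taf7l). Each is the run of 250 bases before the annotated start site from RefSeq on GRCm38.p6, written 5′ to 3′ on the gene's strand, with the E-boxes in capitals. That of Sohlh1 lies at chr2:25847249-25847498 on the minus strand, that of Zp3 at chr5:135979855-135980104 on the plus strand, that of Figla at chr6:86016941-86017190 on the plus strand and that of Taf7l at chrX:134476491-134476740 on the minus strand.
Sohlh1: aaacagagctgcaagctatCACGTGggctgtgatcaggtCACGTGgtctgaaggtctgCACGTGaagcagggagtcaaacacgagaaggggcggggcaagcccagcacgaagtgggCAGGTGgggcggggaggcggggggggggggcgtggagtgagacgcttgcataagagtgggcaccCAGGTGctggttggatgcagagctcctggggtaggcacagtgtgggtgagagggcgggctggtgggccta
Zp3: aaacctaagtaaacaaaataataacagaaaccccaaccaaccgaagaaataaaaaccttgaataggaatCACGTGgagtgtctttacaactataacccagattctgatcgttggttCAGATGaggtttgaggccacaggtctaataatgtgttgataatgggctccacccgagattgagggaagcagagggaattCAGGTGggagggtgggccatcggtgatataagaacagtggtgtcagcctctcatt
Figla: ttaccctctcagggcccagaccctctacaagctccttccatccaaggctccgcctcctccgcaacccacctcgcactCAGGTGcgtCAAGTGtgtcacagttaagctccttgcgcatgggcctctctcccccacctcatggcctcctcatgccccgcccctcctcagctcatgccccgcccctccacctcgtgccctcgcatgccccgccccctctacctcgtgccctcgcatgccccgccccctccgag
Taf7l: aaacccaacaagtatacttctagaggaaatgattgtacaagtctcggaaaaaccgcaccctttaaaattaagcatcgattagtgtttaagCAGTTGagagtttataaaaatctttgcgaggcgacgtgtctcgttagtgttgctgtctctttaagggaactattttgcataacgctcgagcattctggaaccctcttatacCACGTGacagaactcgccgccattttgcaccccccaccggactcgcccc
These windows held 5 E-boxes in Sohlh1, 3 in Zp3, 2 in Figla and 2 in Taf7l. The form CACGTG occurred 3 times in Sohlh1, 231, 211 and 192 bases before the start, once in Zp3, 181 bases before it, and once in Taf7l, 49 bases before it. In Figla the pair lay 173 and 164 bases before the start. An E-box is common in windows of this length: 66.2% of 32851 promoters held at least 1, as did the first listed promoter of 58.8% of 10703 tested genes. The share was 74.8% of 246 genes called at least 4-fold lower and 66.7% of 96 called at least 4-fold higher, given here as a description. A match of letters is not a binding site. Promoters of Gdf9 and Nlrp14 were not used here.

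All levels are normalized log2 intensities, with the SD over a group's 4 arrays after ±. The intensity of a probe depends on its sequence, so levels are compared between groups and not between genes. A gene was called when its adjusted p by limma, with Benjamini-Hochberg adjustment over 13350 genes, was under 0.05, and "rose" and "fell" are used of called genes only. Where no array of a group showed a probe above background (0 of 4), the fold is a bound, written as at least N-fold, with the dim values raised to the background level. Some folds below rest in part on dim values: 1 array of the fainter group was above background for Zp2, Pou5f1, Ihh, Lin28a and Adipoq, 2 for Fbxw15, Hhip, Gm773, Taf7l, Tktl1, Spo11 and Spata22, and 3 for Cyp17a1, Hsd3b1, Insl3, Sall4, Meiob and Sohlh2. Probes above background on at least 3 of the 11 arrays were kept, so a gene dim in 1 group could enter through the other alone. The counts of list members carry that selection. In whole ovaries, fewer cells of a type and less RNA per cell cannot be told apart.

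Sohlh1 read 11.23, 11.13, 11.23 and 11.47 in wild type 1 to 4 and 8.43, 8.48, 8.83 and 9.04 in Sohlh1 KO 1 to 4. The groups did not overlap, as the labels would have it, and the fall was 5.94-fold (log2 difference -2.57, SE 0.148, adjusted p = 2.72e-08). These values are from the brighter of 2 kept probes, and the other is not described here. The brighter probe stayed above background on all 4 knockout arrays. Whether it lies in the deleted part of the gene is not known from the labels. Defining markers of the ovary were present in both groups: the somatic gene Wnt4 stood at 8.57 ± 0.10 in wild type and 9.05 ± 0.19 in Sohlh1 KO (SD, n = 4 each), and the germ cell gene Dazl at 9.14 ± 0.20 and 11.14 ± 0.64 (SD, n = 4 each). Foxl2, the granulosa fate factor, was fainter, at 5.43 ± 0.22 and 5.99 ± 0.81 (SD, n = 4 each). Nr5a1, a factor of gonadal somatic cells, was above background on 3 arrays of each group.

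Column names place the arrays on 2 chips, with all 4 wild-type arrays on chip 1 beside Sohlh1 KO 1 and 2, and Sohlh1 KO 3 and 4 on chip 2. Between 46.9% and 52.6% of probes were above background. Correlations across the tested genes were 0.986 to 0.992 within wild type, 0.969 to 0.984 within Sohlh1 KO and 0.912 to 0.938 between the groups. A first principal component with 71.7% of the variance separated the groups, and Sohlh1 KO 1 stood apart from the other knockout arrays on the second component (10.7%). Leaving out Sohlh1 KO 1 raised the number of called genes from 4366 to 4732.

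In all, 4366 of 13350 genes were called, or 32.7%: 2173 higher (16.3%) and 2193 lower (16.4%). The 2 directions were thus nearly equal in number, though cyclic loess normalization gave 1739 higher and 2469 lower and chip 1 alone 1309 and 1679. At least 4-fold differences were called for 318 lower and 119 higher genes, and at least 16-fold for 70 lower and 17 higher. All 4 knockout arrays lay above all wild-type arrays for 2000 genes (15.0%) and below them for 2144 (16.1%). All 4366 called genes kept their sign when only the 6 arrays of chip 1 were compared, and 2776 of them stayed called. These 6 arrays are part of the full comparison, so the agreement in sign is no independent evidence. The median log2 difference over all genes was 0.0347.

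**Figure D1:**
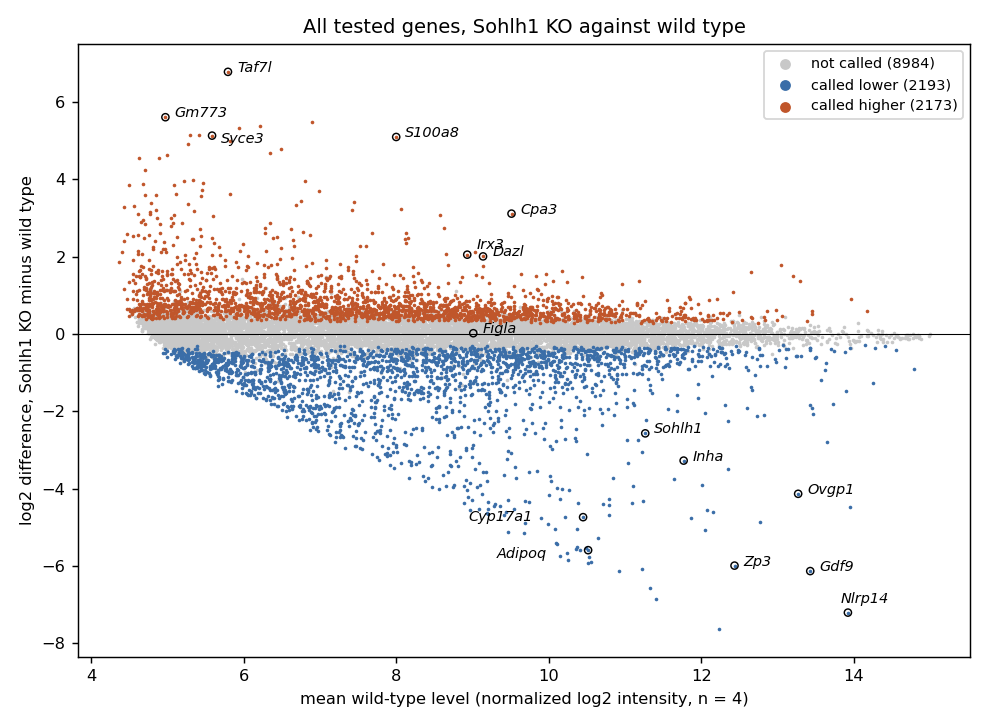
Each point is 1 of 13350 genes, with its mean log2 intensity on the horizontal axis and the log2 difference of Sohlh1 KO minus wild type on the vertical axis. Called genes are coloured, 2173 higher and 2193 lower, and the lower ones reach further from 0.

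The transcription factors of the oocyte did not move as 1 group. Of 13 tested members of that list 7 fell, 2 rose and 4 were not called, with a median log2 difference of -1.05. Sohlh1 itself, the gene knocked out, is counted among the 7 and in the median, and its fall belongs to the design. Figla, which switches on the zona pellucida genes, read 8.72, 8.83, 8.98 and 9.50 in wild type 1 to 4 and 9.23, 9.03, 9.14 and 8.70 in Sohlh1 KO 1 to 4. These ranges lay on top of each other, and the difference was 0.02 on the log2 scale (SE 0.177, adjusted p = 0.951). Nobox, a homeobox factor needed for early follicles, was at 6.06 ± 0.13 in wild type and 5.63 ± 0.49 in Sohlh1 KO (SD, n = 4 each; adjusted p = 0.13). With array weights and without Sohlh1 KO 1 it was called lower, in the latter case with a log2 difference of -0.64 (adjusted p = 0.00579).

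Lhx8, a LIM homeobox factor of oocytes, did differ. It read 7.15, 8.06, 7.32 and 7.81 in wild type 1 to 4 and 6.65, 6.56, 6.63 and 6.29 in Sohlh1 KO 1 to 4, a fall of 2.07-fold (adjusted p = 0.00098) without overlap. Pou5f1, the pluripotency factor that oocytes re-express as they grow, fell further. Its values were 7.98, 8.01, 8.10 and 7.89 in wild type 1 to 4 and 4.83, 5.06, 5.11 and 5.29 in Sohlh1 KO 1 to 4, a fall of 7.59-fold, and it stayed above background on 1 knockout array. Sall4, a zinc finger factor of germ cells, fell 11.9-fold to 5.11 ± 0.23, and the oocyte homeobox gene Obox5 was at least 13.7-fold lower.

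Sohlh2, the relative and partner of Sohlh1, was faint and higher in the knockout. It read 4.99, 5.06, 4.83 and 5.17 in wild type 1 to 4 and 6.35, 5.65, 5.45 and 5.38 in Sohlh1 KO 1 to 4, highest in Sohlh1 KO 1. The rise was 1.62-fold (adjusted p = 0.0115), or 0.48 on the log2 scale without Sohlh1 KO 1. The call ended without wild type 2 and 3, whose titles carry a letter b of unstated meaning. Foxo3, which holds oocytes in the resting pool, rose 1.29-fold, a call that ended in the same way and also on chip 1 alone.

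Growth factors of the oocyte fell steeply. Gdf9, which acts on granulosa cells, read 13.57, 13.56, 13.30 and 13.28 in wild type 1 to 4 and 7.20, 7.25, 7.43 and 7.32 in Sohlh1 KO 1 to 4. The knockout arrays agreed closely with each other and lay far below wild type, a fall of 70.0-fold (log2 difference -6.13, SE 0.161, adjusted p = 1.97e-11). Its X-linked relative Bmp15 read 10.83, 10.98, 10.63 and 10.74 in wild type 1 to 4 and 6.44, 6.32, 6.45 and 6.31 in Sohlh1 KO 1 to 4, a fall of 21.3-fold. Both stayed above background on all 4 knockout arrays. Fgf8, a growth factor that oocytes send to cumulus cells, was at least 4.49-fold lower. Bmp6, the fourth tested factor of the list, was at 6.60 ± 0.33 in wild type and 6.89 ± 0.37 in Sohlh1 KO (SD, n = 4 each) and was not called.

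Of 11 tested zona pellucida and oocyte surface genes, 8 fell and 0 rose, with a median log2 difference of -1.45. Zp3, a main protein of the zona, read 12.50, 12.45, 12.67 and 12.11 in wild type 1 to 4. In Sohlh1 KO 1 to 4 it read 6.55, 6.62, 5.85 and 6.77, a fall of 63.5-fold. Zp1, which cross-links the zona filaments, fell from 10.49 ± 0.12 to 4.97 ± 0.24 (SD, n = 4 each), with 1 knockout array above background. Zp2 was faint in wild type already, with 6.51, 6.46, 6.34 and 6.18 in wild type 1 to 4, and fell 2.74-fold to 4.92 ± 0.32 (SD, n = 4). The knockout values of Zp2 were above background on 1 array, so its smaller fold has the array's floor beneath it. Oosp1, a secreted oocyte protein, was at least 78.5-fold lower. Kit, the receptor through which granulosa cells reach the oocyte, was at 10.49 ± 0.06 and 10.22 ± 0.41 (SD, n = 4 each) and was not called (adjusted p = 0.278). It was called lower without Sohlh1 KO 1, with a log2 difference of -0.46 (adjusted p = 0.0125), and the difference was 0.025 on chip 1 alone.

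**Figure D2:**
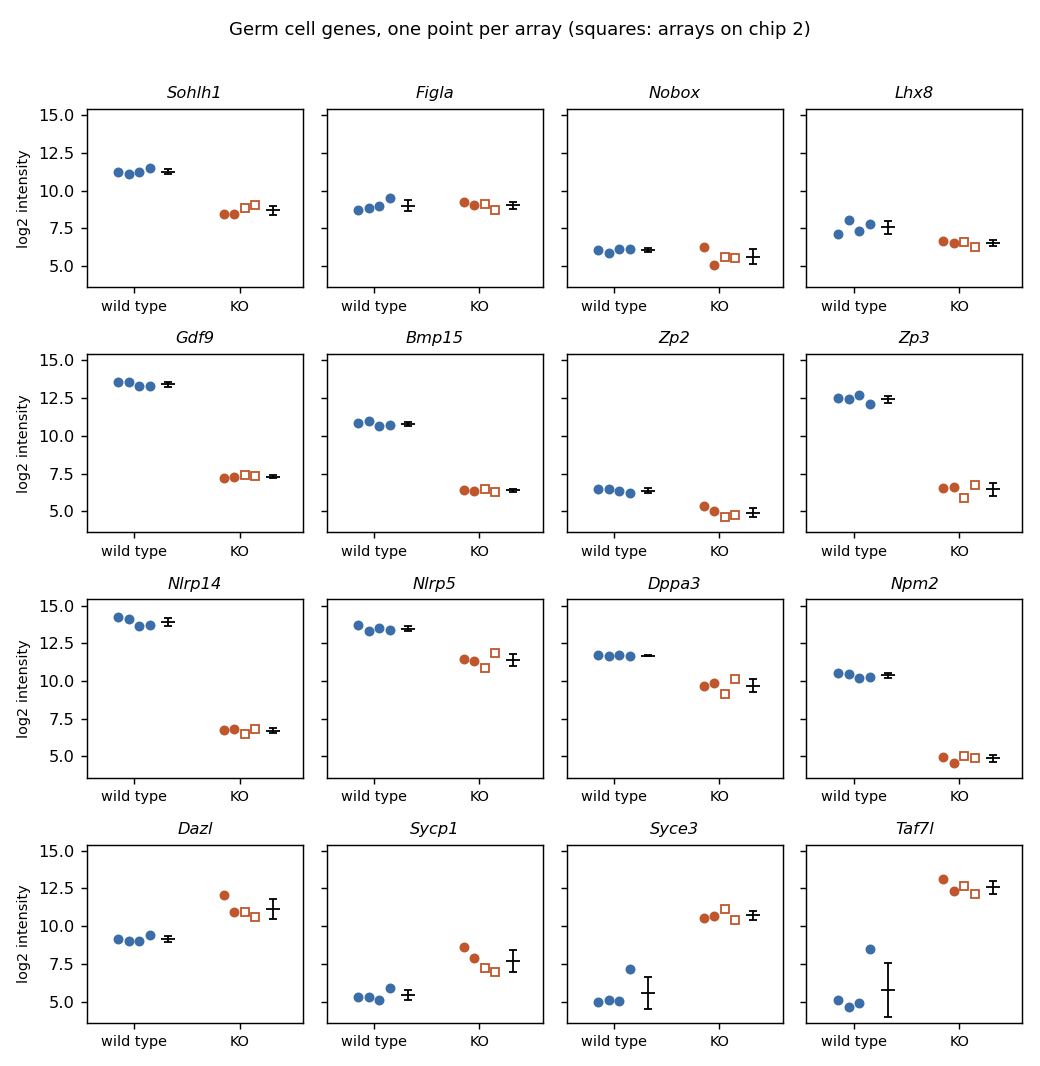
Each panel shows 1 germ cell gene, with log2 intensity on the vertical axis, 1 point per array (wild type blue, Sohlh1 KO orange, open squares for arrays on chip 2) and the mean with SD beside the points. Gdf9, Bmp15, Zp3, Nlrp14 and Npm2 are far lower in every knockout array, Figla overlaps between the groups, and Dazl, Sycp1, Syce3 and Taf7l are higher in every knockout array.

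The proteins stored for the embryo fell in larger numbers. Of 14 tested genes of the subcortical maternal complex and the Nlrp family, which form a layer under the oocyte's membrane and belong to the NLR proteins, 12 fell and 1 rose, with a median log2 difference of -2.56. Nlrp14 read 14.23, 14.09, 13.66 and 13.70 in wild type 1 to 4 and 6.75, 6.84, 6.46 and 6.84 in Sohlh1 KO 1 to 4, a fall of 147-fold (adjusted p = 1.34e-11). Khdc3, a member of the complex, fell 14.0-fold, from 9.19 ± 0.26 to 5.38 ± 0.18 (SD, n = 4 each).

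Other members of the complex fell less. Nlrp5, a maternal-effect gene of the complex, read 13.70, 13.31, 13.49 and 13.37 in wild type 1 to 4 and 11.48, 11.34, 10.85 and 11.88 in Sohlh1 KO 1 to 4, a fall of 4.23-fold. Ooep read 13.59, 13.81, 13.80 and 13.41 in wild type 1 to 4 and 10.60, 10.85, 10.96 and 10.99 in Sohlh1 KO 1 to 4, a fall of 6.98-fold. No knockout array overlapped wild type for either gene, and both were above background on all 8. Nlrp4c was the member that rose, by 1.00 on the log2 scale from 8.18 to 9.19, and it was named after its values were seen.

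Among 21 tested maternal-effect and chromatin genes 17 fell and 1 rose, with a median of -3.42. Npm2, the nucleoplasmin that loosens sperm chromatin, was at least 38.3-fold lower, from 10.51, 10.48, 10.22 and 10.27 in wild type 1 to 4. The oocyte linker histone H1f8 was at least 38.0-fold lower and the F-box gene Fbxw15 fell 67.2-fold. Dppa3, which protects maternal methylation marks in the zygote, fell 3.99-fold. It read 11.74, 11.65, 11.71 and 11.64 in wild type 1 to 4 and 9.64, 9.85, 9.13 and 10.15 in Sohlh1 KO 1 to 4, with wild type spread over 0.05 (SD) and the knockout over 0.43. Bnc1, the member that rose, did so by 0.42 on the log2 scale, a call that ended on chip 1 alone, with cyclic loess and without wild type 2 and 3. It was named after its values were seen.

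Genes of meiotic arrest and maturation were mixed, with 5 of 11 lower, 2 higher and a median of -0.37. Of all genes 16.4% were lower and 16.3% higher. Mos, the kinase that holds the mature egg at metaphase, fell from 9.29 ± 0.22 to 4.90 ± 0.26 (SD, n = 4 each), with 1 knockout array above background. Eif4e1b, an oocyte cap-binding protein, was at least 8.50-fold lower, and Plat, the tissue plasminogen activator, fell 1.61-fold. Ccnb3, a meiotic cyclin, went the other way. It read 6.45, 6.62, 6.67 and 6.80 in wild type 1 to 4 and 8.79, 8.67, 9.19 and 7.71 in Sohlh1 KO 1 to 4, a rise of 3.87-fold.

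Genes of meiotic prophase were higher in the knockout. All 10 tested members of the synaptonemal complex and meiotic axis were called, 9 higher and 1 lower, with a median log2 difference of 1.86. Sycp1, which bridges the paired axes, read 5.33, 5.34, 5.13 and 5.92 in wild type 1 to 4 and 8.60, 7.90, 7.25 and 6.99 in Sohlh1 KO 1 to 4. The rise was 4.79-fold, with the highest value in Sohlh1 KO 1, and without that array the log2 difference was 1.95. Stag3, a cohesin subunit of meiosis, rose 6.16-fold, from 6.78 ± 0.30 to 9.40 ± 0.17, and the axis protein Sycp2 5.49-fold, from 5.33 ± 0.16 to 7.79 ± 0.25 (SD, n = 4 each).

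Syce3, of the central element, showed the widest gap of these genes and an uneven wild type. It read 5.01, 5.10, 5.06 and 7.17 in wild type 1 to 4 and 10.57, 10.69, 11.16 and 10.43 in Sohlh1 KO 1 to 4, a rise of 34.9-fold. Wild type 4 stood well above the other wild-type arrays and still far below the lowest knockout array. Rec8, the meiotic cohesin that replaces the mitotic form, rose 2.74-fold. The member that fell was Syce2, by 0.57 on the log2 scale, a call that ended without Sohlh1 KO 2, without Sohlh1 KO 4 and without wild type 1. It was named after its values were seen. Sycp3 of the axis and Dmc1 of recombination were above background on 0 arrays and were not tested.

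Of 13 tested recombination genes 7 rose, 1 fell and 5 were not called, with a median of 0.71. Spo11, which makes the meiotic double-strand breaks, read 5.55, 4.85, 4.82 and 5.21 in wild type 1 to 4 and 8.38, 9.13, 9.29 and 8.08 in Sohlh1 KO 1 to 4, a rise of 12.2-fold. Spata22 and its partner Meiob, which coat single strands during repair, rose 15.4-fold and 5.73-fold. Of 11 genes of retinoic acid and meiotic entry 5 rose and 1 fell. Aldh1a2, the enzyme that makes retinoic acid in the gonad, rose 2.71-fold, from 7.27 ± 0.27 to 8.71 ± 0.25 (SD, n = 4 each), and Meioc, which stabilizes the meiotic programme, was at least 2.88-fold higher. Stra8, the gatekeeper of meiotic entry, was above background on 0 arrays and was not tested.

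Genes shared by germ cells of both sexes were also measured. Dazl, an RNA-binding protein of germ cells, read 9.12, 9.02, 8.99 and 9.42 in wild type 1 to 4 and 12.07, 10.94, 10.91 and 10.63 in Sohlh1 KO 1 to 4, a rise of 4.01-fold. Ddx4, the germ cell RNA helicase, read 7.06, 6.43, 6.58 and 6.37 in wild type 1 to 4 and 9.30, 8.07, 7.63 and 7.30 in Sohlh1 KO 1 to 4, a rise of 2.77-fold. Both were highest in Sohlh1 KO 1 and neither overlapped between the groups. Without that array their log2 differences were 1.69 and 1.06, and both stayed called. Without wild type 2 and 3 the call of Ddx4 ended.

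The list of germ cell identity split in both directions, with 8 of 17 tested members higher and 5 lower, against 16.3% and 16.4% of all genes. Dppa4, a chromatin protein of pluripotent and germ cells, rose 9.99-fold, from 6.69 ± 0.23 to 10.01 ± 0.26 (SD, n = 4 each). Dppa5a, of pluripotent cells, stood at 12.31 ± 0.12 in wild type and at 10.48 ± 0.06 in Sohlh1 KO, a fall of 3.57-fold (SD, n = 4 each). Lin28a, which blocks let-7 microRNAs, fell 2.04-fold. Of 20 piRNA and Tudor genes, which silence transposons in germ cells, 12 rose and 2 fell. Asz1, a mitochondrial partner of that pathway, was at 9.13 ± 0.18 in wild type (SD, n = 4) and read 11.48, 10.62, 10.96 and 10.48 in Sohlh1 KO 1 to 4, a rise of 3.37-fold, and Tex19.2 rose 6.12-fold.

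The largest rise, that of Taf7l, belonged to a list of genes best known from the male germ line. Of 18 tested spermatogonial and testis germ cell genes 14 rose and 3 fell, with a median log2 difference of 3.03. The other 9 of 27 listed members were not tested. Members above background on 0 wild-type arrays, such as Dmrtc2, passed the filter only through knockout arrays, so they could only be seen as higher. The counts were the same in all 20 alternatives without a fold minimum, but most of these share the filter and most arrays. The list holds genes picked with their values known, so its direction is no independent evidence. Taf7l, a germ cell form of a TFIID subunit, read 5.11, 4.66, 4.93 and 8.48 in wild type 1 to 4 and 13.11, 12.36, 12.65 and 12.15 in Sohlh1 KO 1 to 4. The rise was 109-fold (log2 difference 6.77, SE 0.641, adjusted p = 3.18e-06), with wild type 4 far above the other wild-type arrays. Without that array the log2 difference was 7.67.

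Wild type 4 was also highest of its group for Tktl1, a transketolase-like gene. That gene was at 5.29 ± 0.95 in wild type (SD, n = 4), with 6.70 in wild type 4, and read 11.17, 10.08, 10.55 and 9.91 in Sohlh1 KO 1 to 4, a rise of 35.2-fold. Gm773 rose 48.5-fold, from 4.97 ± 0.28 to 10.57 ± 0.21, and Cabs1, a calcium-binding spermatid protein, 35.0-fold, from 5.42 ± 0.35 to 10.55 ± 0.16 (SD, n = 4 each). Dmrtc2, a DM-domain factor of meiosis, was at least 15.6-fold higher, and the surface protein Tex101, above background on 1 wild-type array, rose by 3.00 on the log2 scale.

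Many of these genes are X-linked. Of 118 genes with a known chromosome that were called at least 4-fold higher, 26 lay on the X chromosome, or 22.0%, against 457 of 13334 tested genes, or 3.43%. Among 318 genes called at least 4-fold lower 2 were X-linked (0.629%), Bmp15 and the cilia gene Akap14. At 16-fold and above, 4 of the 17 rises were X-linked: Taf7l, Gm773, Tktl1 and the homeobox gene Rhox13. Rhox13 and Akap14 were named after their values were seen, as was the look at the X chromosome itself, and no test was made of it.

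Genes that set the fate of pregranulosa cells were at or above their wild-type level. Of 18 tested members 8 rose, 0 fell and 10 were not called, with a median log2 difference of 0.52. Irx3, a homeobox factor of pregranulosa cells, read 9.02, 8.71, 8.85 and 9.14 in wild type 1 to 4 and 11.26, 10.56, 11.04 and 11.05 in Sohlh1 KO 1 to 4, a rise of 4.14-fold. Lhx9, a LIM homeobox factor of the gonad's surface and somatic cells, read 5.36, 5.50, 5.61 and 5.60 in wild type 1 to 4 and 7.18, 7.28, 6.80 and 7.07 in Sohlh1 KO 1 to 4, a rise of 2.96-fold. Lgr5, the R-spondin receptor that marks the ovarian surface and cortical pregranulosa cells, rose 2.65-fold, from 7.10 ± 0.08 to 8.50 ± 0.16 (SD, n = 4 each).

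The classical granulosa factors moved little. Wnt4, which steers the gonad to the ovarian fate, rose 1.40-fold (adjusted p = 0.0079), a call that ended on chip 1 alone. Foxl2 read 5.25, 5.27, 5.50 and 5.71 in wild type 1 to 4 and 7.10, 6.08, 5.48 and 5.32 in Sohlh1 KO 1 to 4, so the 2 knockout arrays of chip 1 lay above wild type and the 2 of chip 2 within it. It was not called (adjusted p = 0.182), but on chip 1 alone it was called higher, by 1.16 on the log2 scale (adjusted p = 0.017). Without Sohlh1 KO 1 its log2 difference was 0.19 (adjusted p = 0.456). Fst, the activin-binding follistatin, was at 9.27 ± 0.14 and 9.37 ± 0.35 (SD, n = 4 each; adjusted p = 0.662).

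Hormones and receptors of granulosa cells fell together. Of 14 tested members 10 fell and 0 rose, with a median of -1.43, and 10 fell in each of those alternatives too. Inha, the subunit shared by the inhibins, read 11.62, 11.71, 11.70 and 12.05 in wild type 1 to 4 and 8.68, 8.43, 8.20 and 8.67 in Sohlh1 KO 1 to 4, a fall of 9.67-fold. Hsd17b1, which makes estradiol from estrone, read 12.20, 12.09, 11.86 and 12.45 in wild type 1 to 4 and 7.14, 7.72, 8.08 and 7.24 in Sohlh1 KO 1 to 4, a fall of 24.4-fold.

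Some receptors of that list were lower as well, and others were not called. Fshr, the receptor for follicle-stimulating hormone, read 9.14, 8.46, 8.66 and 8.72 in wild type 1 to 4 and lay at background in the knockout, at least 12.4-fold lower. Esr2, the estrogen receptor of granulosa cells, read 9.73, 9.68, 9.12 and 9.40 in wild type 1 to 4 and 6.91, 7.40, 7.13 and 6.77 in Sohlh1 KO 1 to 4, a fall of 5.39-fold. Amh, a product of granulosa cells of growing follicles, was at 6.56 ± 0.68 in wild type (SD, n = 4) and at least 2.74-fold lower.

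**Figure D3:**
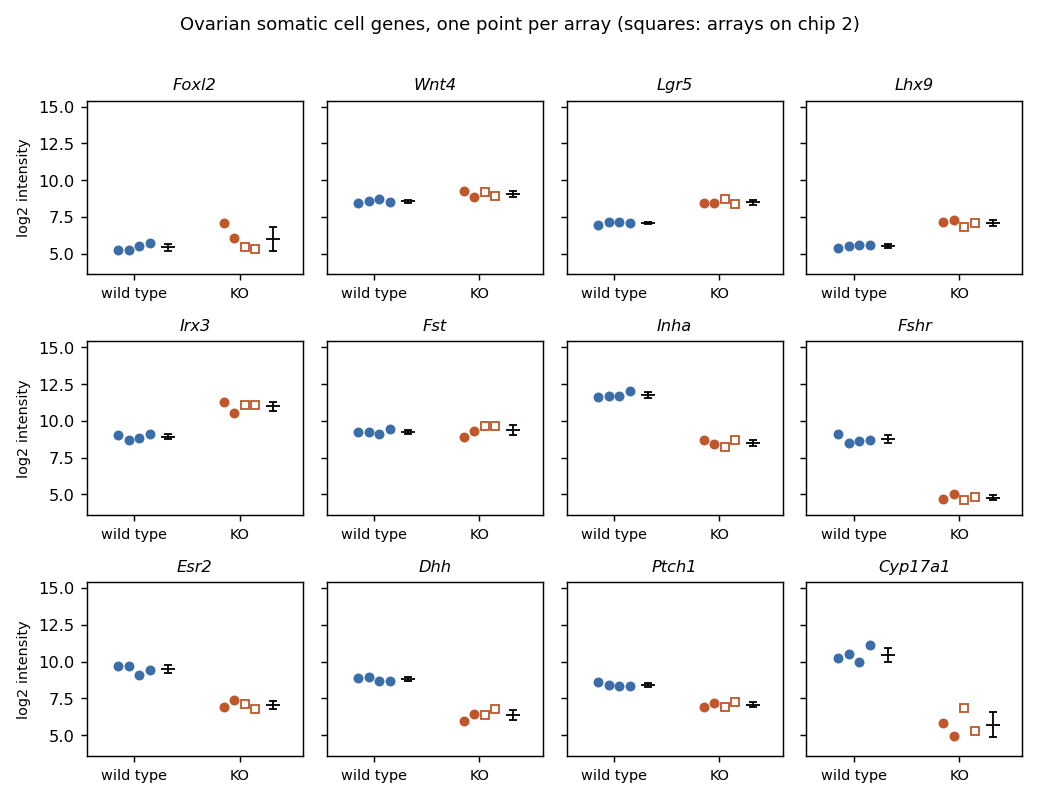
Each panel shows 1 gene of ovarian somatic cells in log2 intensity, 1 point per array (wild type blue, Sohlh1 KO orange, open squares for arrays on chip 2) with the mean and SD. Lgr5, Lhx9 and Irx3 are higher in all knockout arrays, Foxl2 and Fst overlap, and Inha, Fshr, Esr2, Dhh, Ptch1 and Cyp17a1 are lower in all of them.

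Steroid-producing cells showed the same direction. Of 8 tested steroidogenic and theca genes 6 fell and 0 rose. Cyp17a1, the androgen-making enzyme of theca cells, read 10.21, 10.49, 10.00 and 11.10 in wild type 1 to 4 and 5.84, 4.92, 6.84 and 5.26 in Sohlh1 KO 1 to 4. It fell 26.6-fold, and the knockout arrays were spread over 0.84 (SD). Insl3, a peptide hormone of theca cells, fell 8.21-fold, from 8.70 ± 0.13 to 5.67 ± 0.75, and Hsd3b1, which makes progesterone from pregnenolone, 7.36-fold, from 8.13 ± 0.27 to 5.25 ± 0.27 (SD, n = 4 each). The defining adrenal cortex markers Cyp11b1 and Cyp21a1 were not among the tested genes, and of 3 tested genes of that list 1 rose and 1 fell. With 3 genes the share cannot usefully be set against the 32.7% called of all genes.

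Hedgehog ligands come from granulosa cells and their receptor and targets lie in the theca. Of 10 tested genes of the pathway 4 fell and 0 rose, against 16.4% and 16.3% of all genes. The 4 were both ligands and a pair of targets. Dhh read 8.90, 8.97, 8.68 and 8.68 in wild type 1 to 4 and 5.97, 6.44, 6.36 and 6.77 in Sohlh1 KO 1 to 4, a fall of 5.36-fold. Ihh fell 4.22-fold, from 7.07 ± 0.12 to 4.99 ± 0.19 (SD, n = 4 each). Ptch1, receptor and target in one, read 8.62, 8.40, 8.35 and 8.35 in wild type 1 to 4 and 6.92, 7.18, 6.93 and 7.26 in Sohlh1 KO 1 to 4, a fall of 2.56-fold, and Hhip, a target that binds the ligands, fell 3.75-fold. The other 6 members, among them the transducer and the transcription factors of the pathway, were not called.

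Notch signalling, through which pregranulosa cells break up germ cell nests, was split: 4 of 15 tested members fell, 3 rose and the median was 0.04. Of all genes 16.4% fell and 16.3% rose, so the share of members that rose was not far above that of all genes. Hey2, a target, read 8.16, 7.60, 7.92 and 8.09 in wild type 1 to 4 and 6.49, 5.51, 5.39 and 5.73 in Sohlh1 KO 1 to 4, a fall of 4.48-fold. The ligand of oocytes, Jag1, fell 2.08-fold, from 8.01 ± 0.28 to 6.96 ± 0.29, while the ligand Jag2 rose 2.00-fold, from 6.34 ± 0.37 to 7.34 ± 0.42 (SD, n = 4 each). Without wild type 2 and 3 the call of Jag2 ended.

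Of 23 tested Wnt and R-spondin genes 9 rose and 3 fell, against 16.3% and 16.4% of all genes. Sfrp1, a secreted Wnt antagonist, rose 2.46-fold, from 10.96 ± 0.22 to 12.26 ± 0.24, and Dkk3, of a related family, fell 1.75-fold, from 11.54 ± 0.08 to 10.73 ± 0.15 (SD, n = 4 each). In TGF-beta and BMP signalling 6 of 25 tested members rose and 2 fell, a share near the 32.7% called of all genes. A pair of relatives on that list went opposite ways. Id4 read 10.04, 10.04, 10.13 and 9.79 in wild type 1 to 4 and 8.42, 8.36, 7.82 and 8.38 in Sohlh1 KO 1 to 4, a fall of 3.37-fold, while Id1 rose 1.80-fold, from 10.04 ± 0.13 to 10.89 ± 0.05 (SD, n = 4 each). Both encode inhibitors of basic helix-loop-helix factors.

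Genes named for the testis did not rise as a group: of 13 tested Sertoli and testis fate genes 5 fell and 2 rose. The share that rose was near the 16.3% of all genes. Those that fell included Dhh and Amh, already given, and Gdnf, a growth factor for spermatogonia, which fell 2.90-fold from 8.24 ± 0.26 to 6.70 ± 0.57 (SD, n = 4 each). Sox9, the Sertoli cell factor, was at 9.37 in wild type and 9.64 in Sohlh1 KO on average and was not called (adjusted p = 0.145). It was called higher with array weights and without Sohlh1 KO 1, by 0.37 on the log2 scale in the latter case (adjusted p = 0.0166).

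Several programmes held a share of called genes at or below the 32.7% of all genes. Of 26 tested genes of cell death and p53 4 rose and 4 fell. Bik, a death-promoting member of the BCL2 family, fell 2.35-fold, from 7.66 ± 0.23 to 6.43 ± 0.24, and Bmf, another, rose 1.76-fold, from 7.87 ± 0.16 to 8.68 ± 0.27 (SD, n = 4 each). Of 27 cell cycle genes 3 rose and 5 fell, with the mitotic kinase Aurka 2.32-fold lower. Of 17 KIT and PI3K genes 4 rose and 1 fell, the last being Foxo1, 2.02-fold lower. Of 23 mitochondrial respiratory chain genes 1 rose and 2 fell.

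Growth genes of the fetus, many of them imprinted, were higher. Of 18 tested members 13 rose, 0 fell and 5 were not called, with a median log2 difference of 0.66. Igf2bp3, a fetal RNA-binding protein, read 9.01, 8.61, 8.30 and 8.81 in wild type 1 to 4 and 10.16, 10.64, 10.56 and 10.51 in Sohlh1 KO 1 to 4, a rise of 3.45-fold, and its relative Igf2bp1 rose 3.33-fold. Peg3, an imprinted zinc finger gene, read 10.36, 10.28, 10.30 and 10.79 in wild type 1 to 4 and 11.63, 11.97, 11.78 and 12.19 in Sohlh1 KO 1 to 4, a rise of 2.75-fold. Over the alternatives between 11 and 14 members rose.

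Of 25 tested collagens and laminins 5 were higher and 3 lower, a share near that of all genes (32.7%). Col4a4, a chain of the basement membrane collagen, stood out: it read 9.49, 8.82, 8.91 and 8.45 in wild type 1 to 4 and 6.27, 5.87, 5.64 and 5.91 in Sohlh1 KO 1 to 4, a fall of 7.98-fold. Col4a3, the chain it assembles with, was at least 2.76-fold lower. The other 4 tested collagen IV chains were not called.

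**Figure D4:**
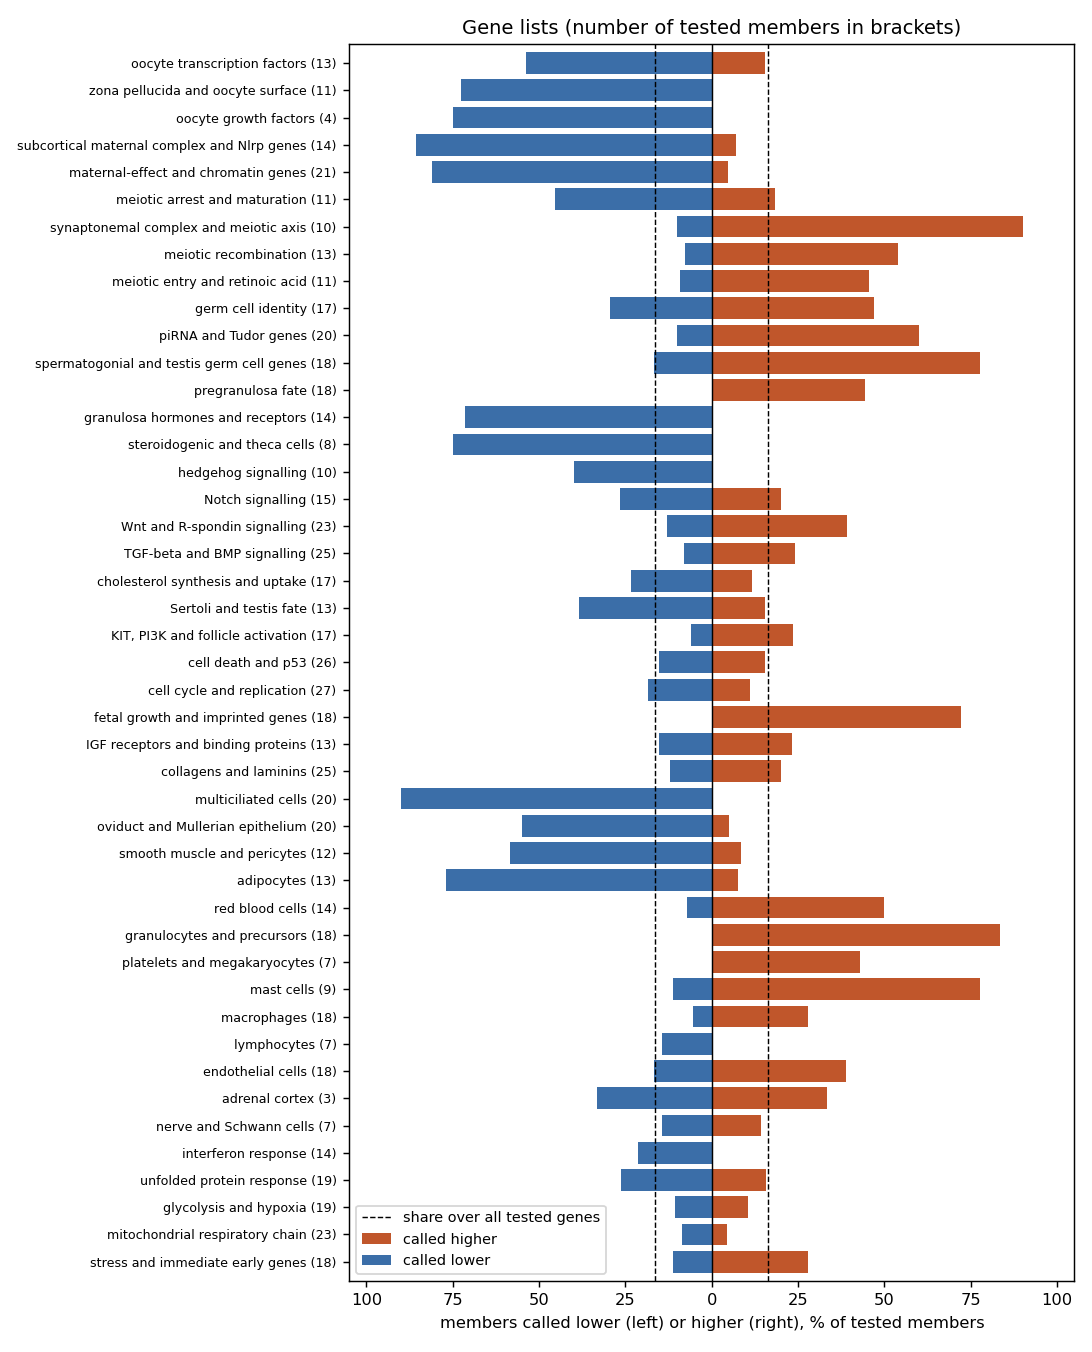
Bars give the percentage of tested members of each gene list that were called lower (left, blue) or higher (right, orange) in Sohlh1 KO, with the number of tested members in brackets. Dashed lines mark the shares over all genes, 16.4% lower and 16.3% higher; 9 of 10 synaptonemal genes lie to the right and 18 of 20 multiciliated genes to the left.

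Markers of cells outside the follicle differed as well, and their part in the results above was not tested. Of 20 tested genes of multiciliated cells, which line the oviduct and the rete, 18 fell and 0 rose, with a median of -1.96. Their summed level ran from 18480 to 24580 linear intensity units in wild type and from 2117 to 3023 in Sohlh1 KO. Fam183b, a gene of motile cilia, read 11.89, 12.56, 12.15 and 12.31 in wild type 1 to 4 and lay at background in the knockout, at least 139-fold lower. The defining marker Ccno fell 33.7-fold, from 12.04 ± 0.16 to 6.97 ± 0.32, and Foxj1, the master factor of motile cilia, 2.20-fold, from 6.57 ± 0.10 to 5.43 ± 0.09 (SD, n = 4 each). Foxj1 stayed above background on all 4 knockout arrays.

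Epithelium of the oviduct showed a smaller share, with 11 of 20 tested members lower and 1 higher. Ovgp1, the oviduct glycoprotein, read 13.51, 13.54, 13.01 and 13.03 in wild type 1 to 4 and 8.93, 9.15, 9.23 and 9.24 in Sohlh1 KO 1 to 4, a fall of 17.5-fold. Pax8, a factor of Müllerian epithelium, fell 1.59-fold. The list's summed level was 32940 to 38700 in wild type and 15410 to 20580 in Sohlh1 KO. Upk3b, a protein of mesothelium, was the member that rose, by 0.53 on the log2 scale, and was named after its values were seen.

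Smooth muscle and fat markers fell too. Among 12 tested smooth muscle and pericyte members 7 were lower and 1 higher, and their summed level was 52660 to 55210 in wild type and 20110 to 27170 in Sohlh1 KO. Actg2, an actin of visceral muscle, read 12.25, 12.50, 12.49 and 12.16 in wild type 1 to 4 and 8.07, 9.36, 9.05 and 8.99 in Sohlh1 KO 1 to 4, a fall of 11.2-fold. Of 13 adipocyte genes 10 fell and 1 rose, with summed levels of 9359 to 14240 and 4096 to 5550. Adipoq, the hormone of fat cells, read 10.46, 10.56, 11.05 and 10.00 in wild type 1 to 4 and 4.92, 4.61, 4.84 and 5.33 in Sohlh1 KO 1 to 4, a fall of 48.1-fold. Plin1, the other defining marker, was near background in both groups and was not called. It was called lower with array weights and without Sohlh1 KO 1, where the log2 difference was -0.52 (adjusted p = 0.00781).

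Blood cell genes were higher and differed most between the knockout arrays. Of 18 tested granulocyte genes 15 rose and 0 fell, 11 on chip 1 alone. Their summed level was 2401 to 3159 in wild type and 10240, 63310, 29160 and 52840 in Sohlh1 KO 1 to 4. S100a8, a calcium-binding protein of neutrophils, read 8.50, 8.29, 7.15 and 8.06 in wild type 1 to 4 and 11.27, 14.01, 13.20 and 13.86 in Sohlh1 KO 1 to 4, a rise of 34.0-fold. The lowest knockout array, Sohlh1 KO 1, still lay above every wild-type array, and without it the log2 difference was 5.69.

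Granule genes of early and late granulocytes did not follow the same arrays. Mpo, made by early precursors, read 10.37, 9.12, 12.21 and 12.37 in Sohlh1 KO 1 to 4, and Elane, another enzyme of that stage, 7.41, 6.44, 10.08 and 9.46, so both were higher on chip 2. Camp and Ngp belong to later granules. Camp read 5.38, 10.60, 8.95 and 11.04 in Sohlh1 KO 1 to 4 and Ngp 4.85, 10.12, 6.98 and 9.74, with Sohlh1 KO 1 at the wild-type level of 5.44 ± 0.28 for Camp and 4.78 ± 0.22 for Ngp (SD, n = 4 each). Camp rose 11.8-fold (adjusted p = 0.0186), but its groups overlapped and the call ended on chip 1 alone and without Sohlh1 KO 2 or 4. Its log2 difference was 4.76 without Sohlh1 KO 1 and 2.88 without Sohlh1 KO 4, and that of Ngp was 4.17 without Sohlh1 KO 1, 2.41 without Sohlh1 KO 2 and 2.54 without Sohlh1 KO 4. Ngp was called (adjusted p = 0.0269), but not on chip 1 alone nor when any 1 array other than Sohlh1 KO 1 or 3 was left out. Without Sohlh1 KO 2 the log2 difference was 4.49 for Elane and 5.31 for Mpo, and without Sohlh1 KO 3 it was 3.28 for Elane. Elane was above background on 0 wild-type arrays and Ngp on 1, so the sizes of the differences of both genes rest on dim values. Ltf, the lactoferrin of the later granules, ranged from 5.75 in Sohlh1 KO 1 to 11.62 in Sohlh1 KO 2 around the wild-type mean of 9.86. Ltf was not called.

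**Figure D5:**
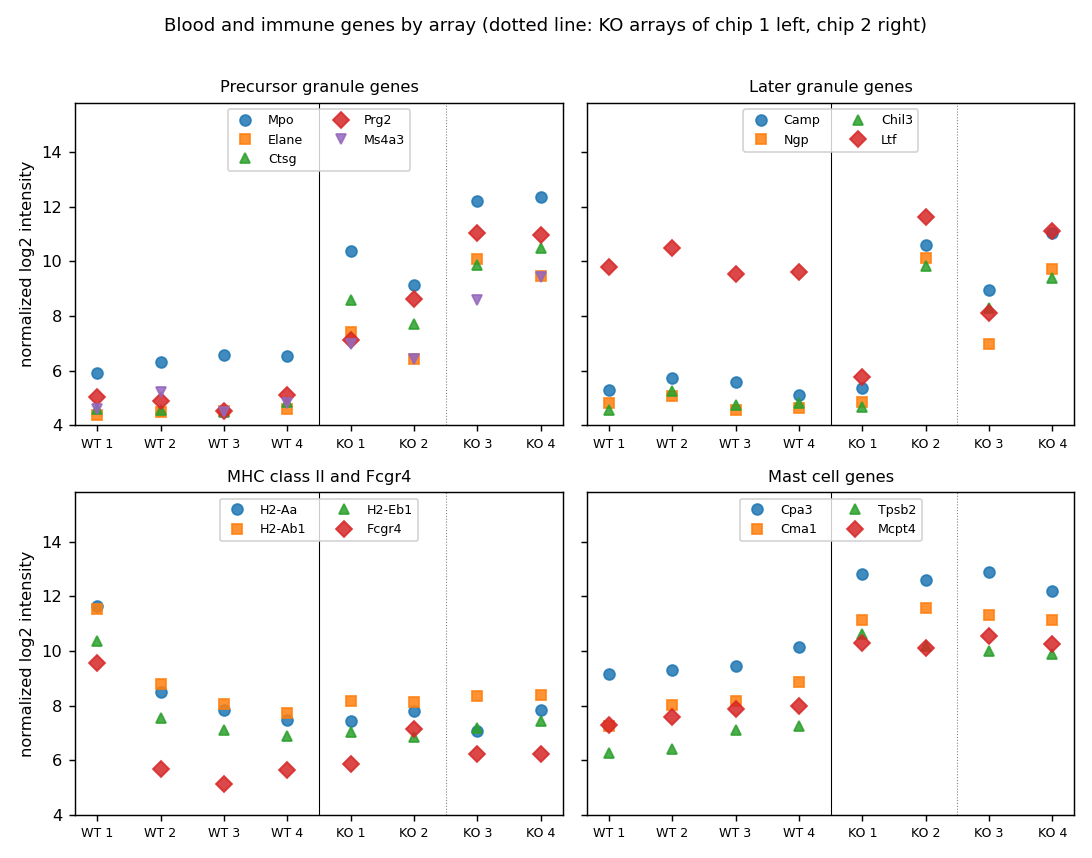
Normalized log2 intensity of blood and immune genes is shown on the vertical axis for wild type (WT) 1 to 4 and Sohlh1 KO 1 to 4, in a panel each for early granule genes, late granule genes, MHC class II genes with Fcgr4, and mast cell genes; symbols mark the genes and the dotted line parts chip 1 from chip 2. Mpo and Elane are highest in Sohlh1 KO 3 and 4, while Camp and Ngp are highest in Sohlh1 KO 2 and 4 and at the wild-type level in Sohlh1 KO 1.

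Red blood cell genes also varied within the knockout, with 7 of 14 tested members higher and 1 lower, and 5 higher on chip 1 alone. Slc4a1, the anion exchanger of red cells, read 5.67, 5.56, 5.73 and 6.35 in wild type 1 to 4 and 7.41, 11.96, 11.19 and 12.73 in Sohlh1 KO 1 to 4, a rise of 31.9-fold. Its log2 difference was 6.13 without Sohlh1 KO 1 and 4.36 without Sohlh1 KO 4. Without Sohlh1 KO 1 the number of members that rose was 11. Alas2, the enzyme of heme synthesis, was steadier and rose 12.9-fold, from 6.99 ± 0.18 to 10.67 ± 0.72 (SD, n = 4 each).

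Mast cell genes rose evenly. Of 9 tested members 7 rose and 1 fell. Cpa3, the defining marker and a protease of mast cell granules, read 9.16, 9.31, 9.45 and 10.13 in wild type 1 to 4 and 12.81, 12.58, 12.89 and 12.21 in Sohlh1 KO 1 to 4, a rise of 8.62-fold. The proteases Cma1 and Tpsb2 rose 9.31-fold and 10.7-fold. Hdc, which makes histamine and was picked out after its values were seen, fell by 1.81 on the log2 scale from 13.73 to 11.92.

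Of 18 tested macrophage markers 5 were higher and 1 lower, a share near that of all genes (32.7%), and 2 were higher on chip 1 alone. Csf1r, the defining marker, was at 7.56 ± 0.25 and 7.91 ± 0.36 (SD, n = 4 each) and was not called. In this group of cells 1 wild-type array stood apart. H2-Aa, an MHC class II chain, read 11.65, 8.48, 7.83 and 7.46 in wild type 1 to 4, and Fcgr4, an Fc receptor, 9.57, 5.69, 5.12 and 5.63, with wild type 1 far above its group for both. Neither was called, and without wild type 1 their log2 differences were -0.39 and 0.88. The summed macrophage level was 18910 in wild type 1 and 8803 to 9870 in the other wild-type arrays.

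Lymphocyte markers were near background, with 1 of 7 tested members lower, a share near the 16.4% of all genes. Endothelial genes went both ways, 7 of 18 higher and 3 lower, against 16.3% and 16.4% of all genes. The share lower was thus near that of all genes. The adhesion molecule Pecam1 rose 1.96-fold, from 8.14 ± 0.09 to 9.11 ± 0.06, and Sox17, a factor of arteries, was at 10.67 ± 0.25 in wild type and 9.09 ± 0.31 in Sohlh1 KO, a fall of 3.00-fold (SD, n = 4 each). The Schwann cell marker Sox10 was not called. Stmn2, a microtubule protein of neurons, read 6.70, 6.07, 6.91 and 7.82 in wild type 1 to 4 and 9.09, 9.55, 9.65 and 9.43 in Sohlh1 KO 1 to 4, a rise of 5.88-fold.

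Among 14 tested interferon response genes 3 fell and 0 rose, a share called below the 32.7% of all genes. Usp18, which damps interferon signalling, read 9.08, 8.90, 8.55 and 8.39 in wild type 1 to 4 and 6.37, 6.68, 6.83 and 6.96 in Sohlh1 KO 1 to 4, a fall of 4.05-fold. Oasl2 fell 3.13-fold and Bst2, a tethering protein of the cell surface, 2.20-fold. Their list's summed level was 16340 in wild type 1 and 9401 to 9899 in the other wild-type arrays, and the number that fell without wild type 1 was again 3. Of 19 genes of the unfolded protein response 3 rose and 5 fell. Among 18 stress and immediate early genes 5 were higher and 2 lower, 4 and 1 on chip 1 alone. With all arrays, both shares called were not far above the 32.7% of all genes.

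Knockout arrays differed among themselves in germ cell genes too. The summed level of the piRNA and Tudor list was 15070, 11080, 12450 and 9366 in Sohlh1 KO 1 to 4 and 5835 to 6686 in wild type. That of the spermatogonial list was 24100, 16490, 17710 and 13330, and that of the retinoic acid list 7255, 5061, 4442 and 4095. Sohlh1 KO 1 was thus the highest and Sohlh1 KO 4 the lowest knockout array on each of these lists, all above wild type. The synaptonemal list had the same highest and lowest array, but not all germ cell lists did. That of meiotic recombination was highest in Sohlh1 KO 3, at 6188. That of germ cell identity was 11410, 7926, 8596 and 7472 in Sohlh1 KO 1 to 4, with only Sohlh1 KO 1 above the 9728 to 10290 of wild type. Without Sohlh1 KO 1 the rises numbered 10 for the piRNA list and 14 for the spermatogonial list.

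The knockout arrays of chip 2 were compared with those of chip 1, 2 against 2, in the same model. Here 5 genes were called (0.0375%), Elane, Mpo, Prg2, Ms4a3 and Gp5. All but the platelet gene Gp5 are genes of myeloid cells. Of all 13350 genes, 1503 had an unadjusted p under 0.05 in this limma comparison, a larger share than the 0.05 that chance would give. Elane was 2.84 higher on chip 2 on the log2 scale (adjusted p = 0.00465) and Prg2, a granule protein of eosinophils, 3.14 higher (adjusted p = 0.0155). Within the knockout the chips and the samples they held cannot be told apart.

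The 3 Sohlh2 KO arrays all lay on chip 2, beside Sohlh1 KO 3 and 4. A direct test of Sohlh1 KO against them found 5 genes called (0.0375%), 4 higher and 1 lower in Sohlh1 KO. The number was 26 with chip as a block and 1 without background correction. Mpo was at 10.37, 9.12, 12.21 and 12.37 in Sohlh1 KO 1 to 4 and at 4.52, 4.55 and 4.59 in the 3 Sohlh2 KO arrays, a log2 difference of 6.46 (adjusted p = 0.0011). The background level of those Sohlh2 KO arrays was 5.24, 5.08 and 5.10, so the size of this difference rests on dim values. In wild type Mpo read 5.92, 6.34, 6.57 and 6.54, between the knockouts. Ctsg, a protease of the same cells, was 3.83 higher (adjusted p = 0.0205), the granule proteoglycan Srgn 1.25 higher and Unc13d, a protein of granule release, 0.87 higher. In the Sohlh2 KO arrays Ctsg read 4.76, 5.88 and 5.36 and Unc13d 4.97, 5.07 and 5.19. Both lay partly below background there, so the sizes of these differences rest in part on dim values. Efcab11 read 6.28, 6.24, 6.15 and 6.41 in Sohlh1 KO 1 to 4 against 6.97, 7.21 and 7.20 in Sohlh2 KO, a log2 difference of -0.85 (adjusted p = 0.0421), and 7.88 ± 0.14 in wild type (SD, n = 4). For the other genes a p that misses the threshold does not show that the knockouts were alike.

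Where a gene had several probes, most called genes were not called by all of them. Of 5169 genes with at least 2 kept probes 2352 had a called probe, 674 of them with all probes called one way and 1660 with called and uncalled probes. In 38 genes probes were called in opposite directions. Ly6k, a Ly6 family surface protein, had 1 probe 3.39 higher and 1 probe 1.05 lower on the log2 scale in Sohlh1 KO, the widest gap. Ctse, an aspartic protease, had its brightest probe lower, by 1.08, and the other 2 higher, by 2.81 and 1.94. The directions of Ly6k, Ctse, Serpina1b, Synm and Mybpc1 therefore depend on the probe. Of 3400 kept probes without a gene symbol 497 were called higher and 472 lower.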

How the data were processed

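Transcript levels were read on 1-colour Illumina arrays, and per the submitters' processing notes the scans were handled in BeadStudio 3.2. The deposited table held linear intensity values that the authors had already quantile normalized, as the values themselves show (98.39 to 33822.48 on the arrays, at most 11.2 units apart at equal rank), without detection p-values, control probes or background subtraction. A series matrix, also deposited, gave the authors' values as log2, which matched the intensities after taking logarithms within 0.005.

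From the intensities, background was fitted by normexp (offset 16) with 1276 olfactory receptor probes as negative controls, in limma 3.58.1 (R 4.3.3, statmod 1.5.0), then came quantile normalization and log2. Probes brighter than the 95th percentile of those controls on at least 3 arrays were kept, 24451 of 45281, with 1 symbol per probe and the brightest probe per gene, which gave 13350 genes. Of all probes 34885 had 1 symbol, 18 several and 10378 none. Chips were read from column names. Group means over all 11 arrays (8 residual degrees of freedom) were fitted with lmFit and eBayes, and p-values were adjusted by Benjamini-Hochberg. Precision is limited by the number of arrays.

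Members, gene lists, the roster and the tests were chosen with earlier results of these data known. The genes named were a roster, the 12 largest falls and rises without overlap, up to 4 called members per list, the most variable genes of each group, the top genes of the chip and Sohlh2 KO comparisons and of opposing probes, and the markers of each cell type; others are marked as named after their values were seen. Of 858 list symbols 787 were on the array; 1 listed name (Tex20), an older name of Sall4, was dropped from its list after the files were read. Summed list levels are sums of linear normalized intensity over the tested members. The fit was checked on simulated data. Replicate numbers are shared between the groups, and same-numbered samples' deviations correlated at 0.0343, 0.0813, 0.0910 and 0.129, so the numbers were not taken as pairs. Alternatives changed the background, normalization, filter, fit, chip, block and arrays.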

Additional observations from a re-analysis of the deposited data

Results flagged for a closer look

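In 276 groups of 4 arrays checked for the genes named here, 8 had an array far from the other 3, and chance flags about 1 in 20 groups. Wild type 4 was high for Taf7l at 8.48, with the next array at 5.11, for Syce3 at 7.17, with the next at 5.10, and for Peg3 at 10.79, with the next at 10.36. Wild type 1 was high for Fcgr4 at 9.57, with the next array at 5.69, and low for Alas2 at 6.72, with the next at 7.04. Sohlh1 KO 1 was high for Rhox13 at 10.51, with the next array at 9.41, and for Csf1r at 8.45, with the next at 7.76. Sohlh1 KO 3 was low for Id4 at 7.82, with the next at 8.36. For Taf7l, Syce3, Peg3, Rhox13, Alas2 and Id4 these arrays still lay on their own group's side, without overlap between the groups.

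The effect of the Sohlh1 knockout differed from that of the Sohlh2 knockout in the direct limma test for 5 genes, against 26 with chip as a block and 1 without background correction. All 3 Sohlh2 KO arrays lay on chip 2, as did 2 of the 4 Sohlh1 KO arrays, and Mpo itself was called between the chips within Sohlh1 KO (adjusted p = 0.0271). The log2 difference, Sohlh1 KO minus Sohlh2 KO, was 6.46 for Mpo, 3.83 for Ctsg, 1.25 for Srgn, 0.87 for Unc13d and -0.85 for Efcab11. That of Mpo rests on Sohlh2 KO values below background, and those of Ctsg and Unc13d rest on such values in part.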

How the results depend on the processing

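No alternative turned the sign of a called gene that it tested. A stricter filter on dim probes tested 4212 of the 4366 called genes. Most alternatives share most of their arrays, so the agreement in sign is no independent evidence. Of 122 called genes named here 110 stayed called under every alternative without a fold minimum that tested them. The other 12 each lost the call under at least 1: Sohlh2, Foxo3, Ddx4, Jag2, Wnt4, Pax8, Srgn, Ctse, Bnc1, Syce2, Camp and Ngp. The cause was not tested. Sohlh2 lost it without background correction (adjusted p = 0.0526) and without wild type 2 and 3 (adjusted p = 0.102), Foxo3 with cyclic loess (adjusted p = 0.0602), and Srgn (adjusted p = 0.12), Pax8 (adjusted p = 0.0522) and Ctse (adjusted p = 0.0515) without wild type 2 and 3.

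With chip 1 only, 1309 genes were higher and 1679 lower, and cyclic loess gave 1739 and 2469. Without wild type 2 and 3, 1083 were higher and 1457 lower. Leaving out 1 array at a time gave 1587 to 2417 higher and 1843 to 2315 lower. A 2-fold minimum left 493 higher and 912 lower. Chip as a block gave 1672 higher and 1916 lower, with the same log2 differences as chip 1 alone, since all wild-type arrays lay on chip 1. The replicate block, fitted on these 2 groups, gave 1797 higher and 1965 lower, and among the named genes it ended only the call of Foxo3 (adjusted p = 0.0712). The chip comparison had 9 genes without background correction and 2 from these 2 groups alone, and the Sohlh2 KO comparison 1 without background correction and 26 with chip as a block.

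Signs turned only for genes not called with all arrays, on the log2 scale as follows. Figla was at -0.053 with cyclic loess, -0.085 without wild type 2 and 3, -0.071 with array weights and -0.077 to 0.18 leaving out 1 array. With chip as a block, and on chip 1 alone, Kit was at 0.025, Fst at -0.16, Gp5 at -0.50 and Unc13d at -0.021. Fcgr4 was at 0.23 with array weights and Nr5a1 at -0.035 without wild type 2 and 3. Leaving out 1 array, Fcgr4 ranged from -0.60 to 0.88, Ltf from -1.55 to 0.41, Gp5 from -0.065 to 0.58 and Nr5a1 from -0.028 to 0.43. Probes were called in opposite directions for 41 genes without background correction, against 38. Signal near background limits the size of change in faint genes.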
